A study of Mus with 4 samples.

Results

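The genes described here encode the collagens, the laminins and a set of other extracellular matrix proteins, matrix-modifying enzymes and fibroblast or mural cell receptors. They were chosen by a rule on gene names, with earlier results of these data known. A collagen was any symbol made of Col, a number, the letter a and a number, a laminin was any symbol beginning with Lama, Lamb or Lamc, and the other genes were all symbols beginning with Adamts together with *Dcn*, *Lum*, *Fbn1*, *Fn1*, *Lox*, *Loxl1*, *Loxl2*, *Pi16*, *Postn*, *Sparc*, *Thbs1*, *Thbs2*, *Tnc*, *Pdgfra* and *Pdgfrb*. The rule matched 94 genes of the mouse annotation, namely 44 collagens, 11 laminins and 39 others. A peak of N6-methyladenosine (m6A) was listed on 54 of them, which were 21 collagens, 7 laminins and 26 others, out of 11431 genes with a peak in the study.

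Methylated RNA immunoprecipitation sequencing (MeRIP-seq) was performed on interscapular brown adipose tissue (iBAT) of C57BL/6 mice fed normal chow and killed at 8 weeks of age. The control mice were *Wtap* flox/flox, carrying floxed *Wtap* alleles without Cre. The *Wtap*-BKO mice carried the same floxed alleles and *Ucp1*-iCre, which places Cre under the control of the brown adipocyte gene *Ucp1*, so that fibroblasts, mural cells and endothelial cells of the tissue are not the cells that the driver targets. RNA was pooled from 8 mice per genotype into 1 immunoprecipitated and 1 input sample, and 1 peak list per genotype was deposited, with 18400 peaks for *Wtap* flox/flox mice and 18693 for *Wtap*-BKO mice. With 1 pooled sample per genotype, no difference between the genotypes could be tested, and the differences below compare 2 lists.

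Collagens are triple-helical proteins. Fibrillar collagens give connective tissue its tensile strength, type VI collagen forms beaded filaments around cells, and type IV collagen forms, together with the laminins, the sheet of basement membrane that surrounds each adipocyte and each capillary. Fibroblasts make most of the fibrillar collagen of adipose tissue, while adipocytes and endothelial cells contribute to their own basement membranes. m6A is the most abundant internal mark of mRNA and is written by a methyltransferase complex of METTL3 and METTL14, in which WTAP is an adaptor. It influences the processing, stability and translation of the transcripts that carry it.

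A peak was described by the exonic bases it covers, by its fold enrichment in the immunoprecipitate over the input, and by its false discovery rate. A false discovery rate depends on the number of reads over a region as well as on its enrichment, and the depth of the libraries is unknown because the lists hold no counts. Each peak was therefore also placed within its own list, by the percent of the peaks in that list with a weaker false discovery rate and by the percent with a lower fold enrichment. A peak was called found in the other list if a peak there covered 1 or more of its exonic bases on the strand of the gene. The lists do not measure transcript levels, and a gene without a peak may still be expressed and methylated. The intervals given are 95% Wilson intervals and cover counting error only. Coordinates are GRCm38.

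Matrix genes carried more peaks, over more bases, in *Wtap*-BKO than in *Wtap* flox/flox mice. They held 73 peaks on 44 genes in *Wtap* flox/flox mice and 115 peaks on 50 genes in *Wtap*-BKO mice. The number of peaks went from 30 to 55 for collagens, from 6 to 12 for laminins and from 37 to 48 for the others. The bases covered went from 24377 to 41148, a ratio of 1.69, while over all genes they went from 5786750 to 5250521, a ratio of 0.907. By group the ratio was 1.99 for collagens, 1.71 for laminins and 1.49 for the others. More bases were covered in *Wtap*-BKO mice for 43 of the 54 genes, whereas 44.5% of all genes with a peak lay on that side. By number of peaks, 32 of the 54 had more in *Wtap*-BKO mice, against 33.3% of all genes. The 43 genes with more bases were 18 of 21 collagens, 5 of 7 laminins and 20 of 26 others. In bulk tissue, more cells of a type cannot be told apart from more RNA per cell, and neither can be told apart here from a larger methylated share of the transcripts.

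**Figure D1:**
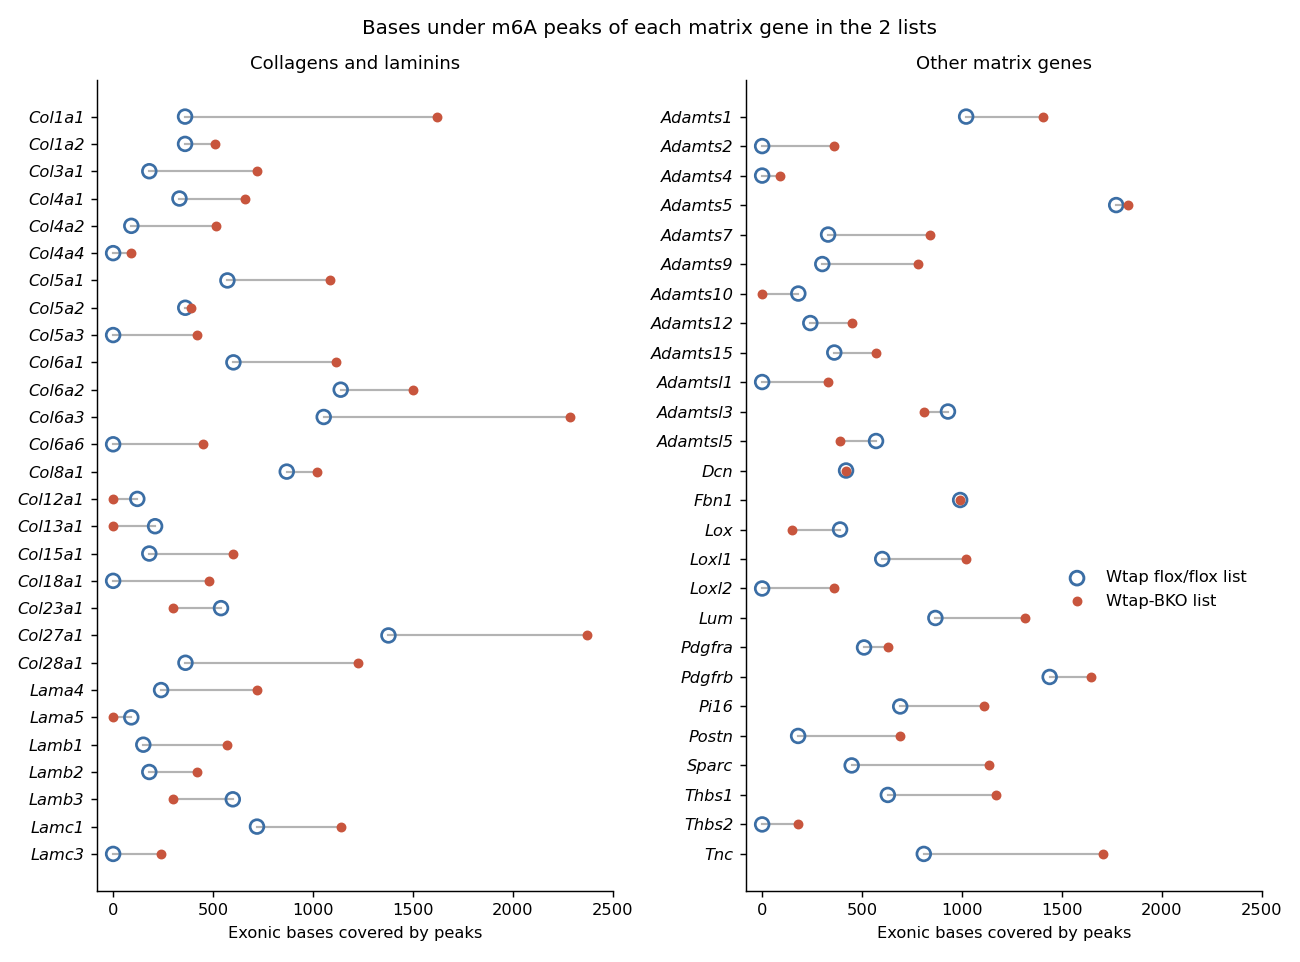
Exonic bases covered by m6A peaks (x axis, bases) on each of the 54 matrix genes with a peak, with open blue circles for the *Wtap* flox/flox list and filled red circles for the *Wtap*-BKO list. A gene without a peak in a list is drawn at 0, and the red circle lies to the right of the blue one for 43 genes.

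The share of matrix genes with a peak in both lists was close to that of all genes. Peaks were listed in both genotypes for 40 of the 54 genes, or 74.1%, against 70.1% of all genes. They were listed in *Wtap* flox/flox mice alone for 4 genes and in *Wtap*-BKO mice alone for 10 genes. The last share was 18.5% (10.4% to 30.8%), and over all genes with a peak it was 14.9%. The share found in *Wtap* flox/flox mice alone was 7.41%, against 15.0% of all genes. Collagens were in both lists for 15 genes, in the *Wtap* flox/flox list alone for 2 and in the *Wtap*-BKO list alone for 4. The corresponding numbers were 5, 1 and 1 for laminins and 20, 1 and 5 for the others. Among genes present in both lists, 33 of 40 matrix genes had more bases covered in *Wtap*-BKO mice (42.3% of all such genes), and the median ratio was 1.71 for matrix genes and 0.943 for all genes.

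Marker genes of other cell types also differed between the lists. Over all genes with a peak, 44.5% had more bases covered in *Wtap*-BKO mice and 14.9% had peaks there alone. Peaks in *Wtap*-BKO mice alone were listed on 2 macrophage, 3 endothelial, 6 skeletal muscle, 4 lymphocyte, 1 mural and 0 brown adipocyte markers. Those in *Wtap* flox/flox mice alone were on 1 mural and 1 brown adipocyte marker. Macrophage markers carried 14 peaks in the controls and 24 in *Wtap*-BKO mice, with a peak in at least 1 list on 9 of 10 markers and none on *Adgre1*. Endothelial markers carried 17 and 25 peaks, and all 10 of them had more bases covered in *Wtap*-BKO mice. Skeletal muscle markers carried 3 and 13 peaks, on 9 of 10 genes. T and B lymphocyte markers carried 0 and 4 peaks, on *Cd4*, *Cd8a*, *Ptprc* and *Cd79b*, with none on the defining T cell genes *Cd3e*, *Cd3d* and *Cd3g*. The mural cell list was less uniform, with 14 and 18 peaks over 6155 and 5317 bases, on 8 of 10 genes. More bases were covered in *Wtap*-BKO mice for 5 of the mural genes and fewer for 3. *Cspg4*, with 3723 and 1714 bases, set the fall in mural bases. Brown adipocyte markers, all 10 of which carried a peak, had 26 and 23 peaks over 6802 and 6257 bases, with more bases in *Wtap*-BKO mice for 5 genes and fewer for 4. *Prdm16*, with 8 and 1 peaks, set the difference in number, and without it, a choice made after the values were seen, the list had 18 and 22 peaks over 5056 and 5027 bases. The part of cell composition in the values of the matrix genes was not tested. *Wtap* itself carried 4 peaks in each list, which does not check the genotype, since a peak does not measure the level of a transcript.

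Fibrillar collagens, the main load-bearing fibres, had a peak on 7 of 11 genes, with 8 peaks over 3212 bases in *Wtap* flox/flox and 18 peaks over 7118 bases in *Wtap*-BKO mice. All 7 genes had more bases covered in *Wtap*-BKO mice. *Col1a1*, which encodes the major chain of type I collagen, had 1 peak of 360 bases in *Wtap* flox/flox mice, on chromosome 11 from 94951484 to 94951843. Its fold enrichment was 3.44 and its log10 false discovery rate -51.4, stronger than 89.6% of the list. In *Wtap*-BKO mice the *Col1a1* peak ran from 94951145 to 94952892 and covered 1619 bases, with an enrichment of 5.53-fold at a log10 false discovery rate of -307.0, stronger than 99.5% of the list. The wider peak held all of the narrower one and ended close to the 3′ end of the gene at 94953042. *Col1a2*, the partner chain of type I collagen, had a peak of 360 bases in *Wtap* flox/flox and of 510 bases in *Wtap*-BKO mice, with fold enrichments of 5.44 and 6.58. Both ranked near the top of their lists, stronger than 98.2% and 99.8%, and the *Wtap*-BKO peak was listed with a false discovery rate of 0.

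*Col3a1*, the chain of type III collagen that accompanies type I in soft tissue, went from 1 to 3 peaks. The peak present in both lists was split over several exons in the middle of the gene, covered 181 and 300 bases, and had fold enrichments of 2.02 and 1.98. Its log10 false discovery rate was -4.28 and -13.3. Thus the fold value was almost the same in the 2 lists, at ranks by enrichment of 4.9% and 8.6%. The rank by false discovery rate was 31.4% and 71.3%. A further *Wtap*-BKO peak, on chromosome 1 from 45347787 to 45348719, had a log10 false discovery rate of -37.0, the smallest among collagen peaks with no counterpart, at a fold enrichment of 1.58 that was higher than that of only 2.7% of the list. The last *Col3a1* peak, from 45348958 to 45349167, was enriched 2.67-fold.

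Type V collagen, which nucleates and limits the width of type I fibrils, had peaks on all of its chains. *Col5a1* had 2 peaks in the controls and 3 in *Wtap*-BKO mice, and its strongest peak covered 421 and 451 bases from the same start, 28036934 on chromosome 2. That peak was enriched 14.5-fold in the former and 7.19-fold in the latter, whereas the log10 false discovery rate was -65.4 and -118.0. Its rank by enrichment was 83.5% and 66.7%, so enrichment and false discovery rate pointed in opposite directions for *Col5a1*. *Col5a2* had 1 peak of 361 and 391 bases, with fold enrichments of 6.67 and 4.70 and log10 false discovery rates of -34.8 and -70.0. The *Col5a2* peak kept its rank by enrichment, at 50.5% and 50.4%, while its rank by false discovery rate was 83.9% and 95.7%. *Col5a3* had no peak in *Wtap* flox/flox mice and 2 in *Wtap*-BKO mice, of which 1 was split over 6 blocks. *Col27a1*, a fibrillar collagen best known from cartilage, went from 2 to 7 peaks. Both of its *Wtap* flox/flox peaks, of 1018 and 360 bases, were found in *Wtap*-BKO mice at 989 and 450 bases. The 5 further *Col27a1* peaks covered 150 to 211 bases each, and all of them were split over 2 or 3 exon blocks.

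Type VI collagen, the beaded filament that links cells to the surrounding matrix, had peaks on 4 of 6 genes. Peaks went from 8 to 18 and covered bases from 2795 to 5353. All 8 *Wtap* flox/flox peaks lay wholly within *Wtap*-BKO peaks. *Col6a3*, the longest chain, had 4 and 9 peaks over 1054 and 2288 bases, a difference in number that among collagens was equalled by *Col27a1* alone. Of the 5 *Col6a3* peaks without a counterpart, the strongest had a log10 false discovery rate of -4.47, weaker than all 4 of the *Wtap*-BKO peaks that were found in both lists. The *Col6a3* peak starting at 90803776 on chromosome 1 covered 151 bases with a fold enrichment of 3.37 in *Wtap* flox/flox mice, and the peak on it in *Wtap*-BKO mice covered 271 bases with a fold enrichment of 22.1. By rank of enrichment this peak stood at 21.1% of the first list and 96.5% of the second.

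*Col6a1* had 2 and 4 peaks. Its strongest began at 76709422 on chromosome 10 in both lists and covered 481 and 571 bases, with fold enrichments of 4.74 and 4.18 and log10 false discovery rates of -88.7 and -181.0. By rank of enrichment that peak stood at 35.9% and 45.1%. A peak at the 3′ end of *Col6a1*, from 76708792 to 76709002, was present in *Wtap*-BKO mice alone with a log10 false discovery rate of -21.1. *Col6a2* had 2 and 3 peaks, and the pair found in both lists covered 779 and 360 bases in *Wtap* flox/flox against 899 and 480 bases in *Wtap*-BKO mice. Their ranks by false discovery rate went from 87.3% to 98.0% and from 87.6% to 97.5%. *Col6a6* had no peak in *Wtap* flox/flox and 2 weak peaks in *Wtap*-BKO mice, which ranked at 37.3% and 32.6% by false discovery rate and at 82.3% and 94.4% by fold enrichment.

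Type IV collagen, the network of the basement membrane, had peaks on 3 of 6 genes, with 4 and 7 peaks over 423 and 1266 bases. *Col4a1* and *Col4a2*, which encode the chains of the network found in nearly all tissues, lie head to head on chromosome 8. They overlap at their starts, from 11312805 to 11312889. *Col4a1* had 3 peaks in each list over 332 and 662 bases. The peak at its start, from 11312706 to 11312826 in *Wtap* flox/flox and from 11312586 to 11312826 in *Wtap*-BKO mice, reached into *Col4a2*, and since the strand setting of the library is not stated, reads of both genes cannot be told apart there. The same holds for a *Col4a2* peak from 11312865 to 11312985 that was listed in *Wtap*-BKO mice alone. Towards the 3′ ends of both genes the peaks had low fold enrichments, of 1.26 to 1.82, although the 3 of them in *Wtap*-BKO mice ranked between 74.4% and 84.0% of their list by false discovery rate. A *Col4a1* peak of 91 bases, with a log10 false discovery rate of -2.87, was listed in *Wtap* flox/flox mice alone. *Col4a4*, a chain of the kidney and eye networks, had 1 weak peak of 91 bases in *Wtap*-BKO mice alone, stronger than 1.6% of the list.

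The multiplexins, which sit at the border between basement membrane and interstitial matrix, had 1 and 4 peaks. *Col15a1* had a peak near its 3′ end in both lists, of 181 bases with a fold enrichment of 4.11 in *Wtap* flox/flox and of 420 bases with a fold enrichment of 5.47 in *Wtap*-BKO mice. *Col18a1*, the precursor of endostatin, had 2 peaks in *Wtap*-BKO mice alone, and the stronger, from 77112454 to 77112783 on chromosome 10, was enriched 16.7-fold with a log10 false discovery rate of -13.0. It was the strongest peak on the 6 collagens listed in 1 genotype alone.

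Not all collagens had more peaks in *Wtap*-BKO mice. *Col12a1*, which binds to the surface of type I fibrils, and *Col13a1*, a transmembrane collagen, each had 1 peak in *Wtap* flox/flox mice alone, and both were weak, stronger than 9.5% and 14.2% of the list. *Col23a1*, also a transmembrane collagen, had 2 and 1 peaks over 540 and 300 bases and was the only collagen in both lists with fewer bases in *Wtap*-BKO mice. *Col8a1*, a short-chain collagen of vessel walls, had 3 peaks in each list over 869 and 1018 bases. The unmatched *Wtap* flox/flox peaks of these genes had log10 false discovery rates of -4.11 for *Col23a1* and -4.58 for *Col8a1*. *Col28a1* had 2 and 4 peaks over 362 and 1228 bases. No peak was listed on 23 collagens. They were the cartilage genes *Col2a1*, *Col9a1*, *Col9a2*, *Col9a3*, *Col10a1*, *Col11a1* and *Col11a2*, the basement membrane genes *Col4a3*, *Col4a5* and *Col4a6*, the type VI genes *Col6a4* and *Col6a5*, and *Col7a1*, *Col8a2*, *Col14a1*, *Col16a1*, *Col17a1*, *Col19a1*, *Col20a1*, *Col22a1*, *Col24a1*, *Col25a1* and *Col26a1*.

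Laminins are built of an alpha, a beta and a gamma chain. The 7 genes with a peak were *Lama4*, *Lama5*, *Lamb1*, *Lamb2*, *Lamb3*, *Lamc1* and *Lamc3*. Among the alpha chains, no peak was listed on *Lama1*, *Lama2* and *Lama3*. Alpha chains carried 2 and 3 peaks, beta chains 3 and 6, and gamma chains 1 and 3. *Lama4*, the alpha chain of endothelial and adipocyte basement membranes, had an identical interval of 240 bases close to its start in both lists, from 38965575 to 38965814 on chromosome 10. This peak was enriched 9.37-fold in the controls and 4.23-fold in *Wtap*-BKO mice, at ranks by enrichment of 64.8% and 45.5%. By false discovery rate its rank was 64.4% and 80.1%. Another 2 *Lama4* peaks were listed in *Wtap*-BKO mice alone. *Lama5*, the other major endothelial alpha chain, had a single weak peak of 91 bases in *Wtap* flox/flox mice alone.

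*Lamc1*, the gamma chain of most laminins, had the strongest laminin peak of both lists. It covered 720 bases in *Wtap* flox/flox and 630 bases in *Wtap*-BKO mice, with log10 false discovery rates of -109.0 and -108.0. Its fold enrichments were 8.67 and 4.84, at ranks by enrichment of 61.7% and 51.7%. A second *Lamc1* peak of 510 bases over 5 exon blocks was listed in *Wtap*-BKO mice alone, with a log10 false discovery rate of -18.0. The common beta chain *Lamb1* had 1 and 2 peaks over 151 and 571 bases. *Lamb2*, the beta chain of vessel and muscle basement membranes, was the only laminin present in both lists without a shared peak. Its *Wtap* flox/flox peak of 181 bases lay at the start of the gene, whereas its *Wtap*-BKO peaks of 271 and 150 bases lay near the other end. *Lamb3*, a chain of epithelial laminin, ran against the group in bases covered, with 599 and 301, although its peaks went from 1 to 2. Its shared peak covered 599 bases with a fold enrichment of 99.7 in *Wtap* flox/flox mice. In *Wtap*-BKO mice that peak covered 180 bases with a fold enrichment of 3.67. Its rank by false discovery rate went from 85.2% to 7.0%. The annotated start of *Lamb3* is at 193294353, and the shared *Wtap*-BKO peak, from 193280533 to 193280712, lay wholly upstream of it. A second *Wtap*-BKO peak of 121 bases, from 193339972 to 193340778, lay inside the gene and had no counterpart. That second peak was weak, stronger than 2.3% of the list, with a fold enrichment of 6.45. The *Wtap* flox/flox peak began upstream, at 193280443, and ended within the gene, at 193302028. *Lamc3* had 1 peak of 239 bases in *Wtap*-BKO mice alone.

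**Figure D2:**
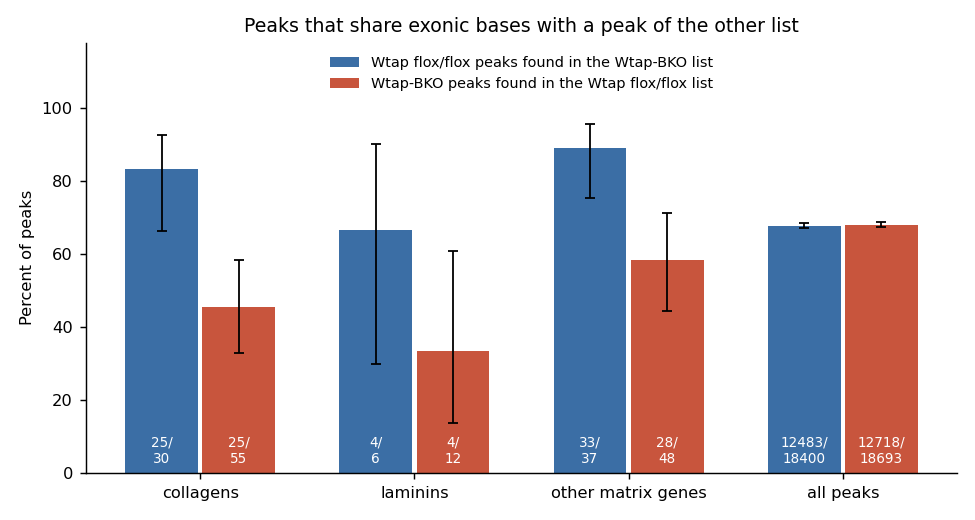
Percent of m6A peaks (y axis) found in the other list, by gene group, in blue for *Wtap* flox/flox and in red for *Wtap*-BKO, with 95% Wilson intervals for counting error as error bars and the counts printed in each bar. In each matrix gene group the blue bar is the taller one, for collagens with 25 of 30 against 25 of 55 peaks, whereas the bars for all peaks are at 67.8% and 68.0%.

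Most matrix peaks of *Wtap* flox/flox mice were found again in *Wtap*-BKO mice, but the reverse was true for less of the *Wtap*-BKO list. Of the 73 *Wtap* flox/flox peaks, 62 (84.9%, 75% to 91.4%) were found, against 67.8% of all *Wtap* flox/flox peaks. Collagens gave 25 of 30, laminins 4 of 6 and the others 33 of 37. Of the 115 *Wtap*-BKO peaks, 57 (49.6%, 40.6% to 58.6%) were found, against 68.0% of all *Wtap*-BKO peaks. The shares were 25 of 55 for collagens, 4 of 12 for laminins and 28 of 48 for the others. Nesting was one-sided as well. A *Wtap* flox/flox peak lay wholly within *Wtap*-BKO peaks in 43 of 73 cases (25.9% of all peaks), and a *Wtap*-BKO peak lay wholly within *Wtap* flox/flox peaks in 9 of 115 cases (32.5% of all peaks). No collagen was among those 9.

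At least 1 peak without a counterpart was carried by 11 of 44 matrix genes in the controls (46.1% of all genes) and by 34 of 50 in *Wtap*-BKO mice (47.7% of all genes). A false discovery rate under 1e-05 was reached by 43 of the 73 control peaks (63.1% of all peaks) and by 76 of the 115 *Wtap*-BKO peaks (58.4% of all peaks). The peaks without a counterpart differed in strength between the lists. Of the 11 matrix peaks found in *Wtap* flox/flox mice alone, 1 had a false discovery rate under 1e-05, against 40.0% of all such peaks. That peak belonged to *Lox*. Of the 58 found in *Wtap*-BKO mice alone, 26 passed the same limit, against 28.2% of all such peaks, namely 11 of 30 on collagens, 6 of 8 on laminins and 9 of 20 on the others. In these 58 peaks, 22 were split over exon blocks (23.7% of all such peaks), and most of those were on collagens, with 13, and laminins, with 6. Their centre lay over 1000 bp from both ends of the gene in 45 of the 57 that could be placed (66.8% of all such peaks).

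**Figure D3:**
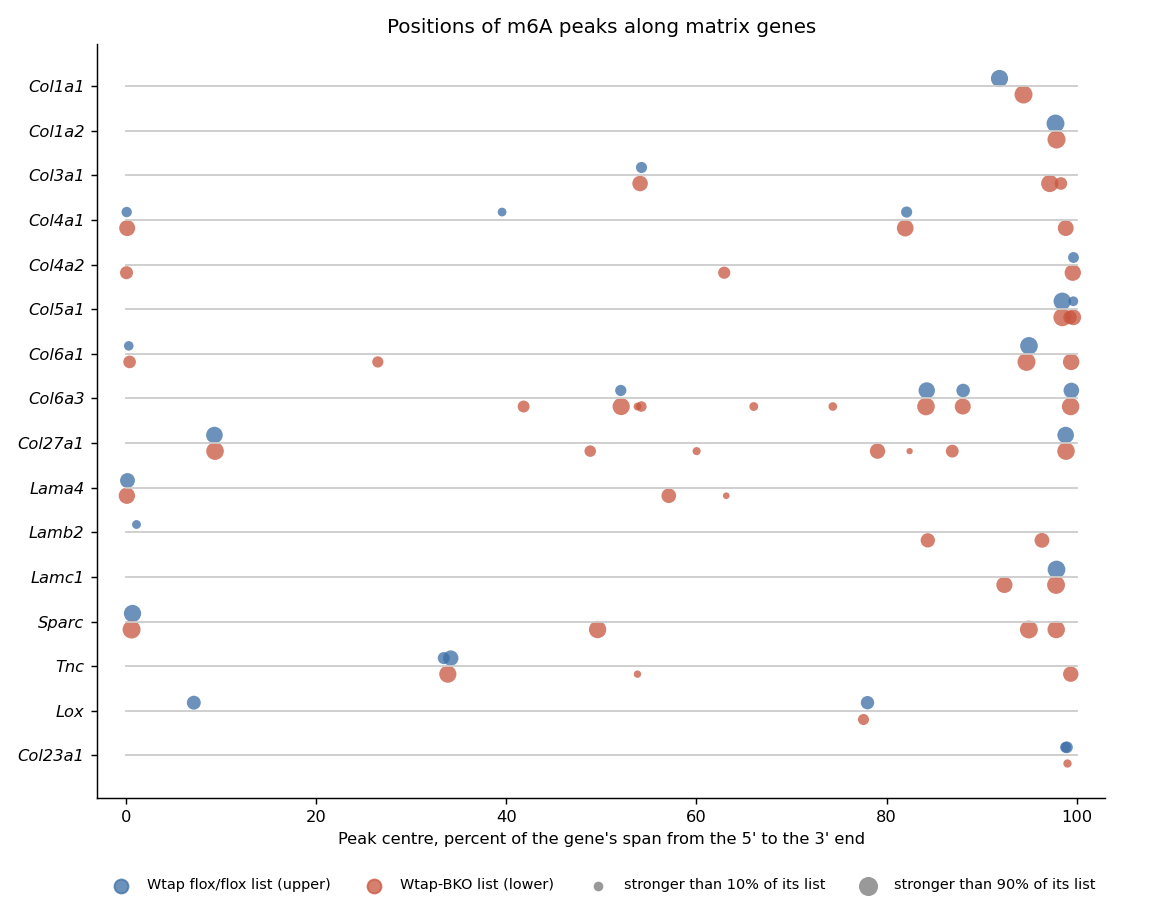
Centres of m6A peaks along 16 matrix genes (x axis, percent of the gene's span from the 5′ to the 3′ end), with blue circles above each line for the *Wtap* flox/flox list, red circles below it for the *Wtap*-BKO list, and larger circles for a stronger rank by false discovery rate. Most blue circles have a red one under them, as for all 4 on *Col6a3*, and *Col6a3* has 5 further red circles.

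The small proteoglycans that bind collagen fibrils carried peaks in both lists. *Dcn*, which encodes decorin, had 1 peak with the same bounds in both lists, 420 bases long, with fold enrichments of 3.93 and 4.08. By rank of enrichment the *Dcn* peak stood at 27.5% and 43.7%. Its log10 false discovery rate was -11.9 in the controls and -33.3 in *Wtap*-BKO mice. *Lum*, which encodes lumican and lies 47338 bp from *Dcn*, had 2 peaks of 538 and 329 bases in *Wtap* flox/flox mice that were joined into 1 peak of 1314 bases in *Wtap*-BKO mice. The joined peak had a fold enrichment of 7.18, between the 15.7 and 5.94 of the separate ones.

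Fibre and matricellular glycoproteins had 8 peaks over 3057 bases in *Wtap* flox/flox and 15 peaks over 5873 bases in *Wtap*-BKO mice. All 8 of the former were found in the latter. *Sparc*, a collagen-binding glycoprotein, went from 1 to 4 peaks over 448 and 1137 bases. Its shared peak, from 55409906 to 55420143 on chromosome 11, had fold enrichments of 5.81 and 6.83 and log10 false discovery rates of -56.6 and -213.0. The other *Sparc* peaks were the 3 strongest *Wtap*-BKO peaks of any matrix gene without a counterpart, with log10 false discovery rates of -100, -47.0 and -42.8. Their fold enrichments were 1.5, 1.26 and 1.70, which ranked at 1.8%, 0.2% and 4.3% of the list. *Fn1*, which encodes fibronectin, had no peak in either list.

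*Fbn1*, the backbone of elastic microfibrils, had 3 peaks over 991 bases in both lists. The strongest *Fbn1* peak covered 451 and 600 bases, with fold enrichments of 16.5 and 22.8. The peak at the 5′ end of *Fbn1* went the other way, with 270 and 121 bases and fold enrichments of 19.5 and 7.58, and it shares bases with a gene on the opposite strand, whose reads cannot be told apart from those of *Fbn1*. *Tnc*, the matrix glycoprotein tenascin C, had 2 adjoining peaks in *Wtap* flox/flox mice that were joined in *Wtap*-BKO mice, and 2 further peaks there. Over all peaks, *Tnc* went from 809 to 1706 bases. *Thbs1*, a matricellular inhibitor of angiogenesis, went from 1 to 2 peaks over 629 and 1169 bases, and its shared peak had fold enrichments of 7.05 and 9.73. *Thbs2*, its close relative, had 1 weak peak of 181 bases in *Wtap*-BKO mice alone. *Postn*, a matricellular protein of remodelling tissue, had a peak with the same bounds in both lists and a second of 509 bases in *Wtap*-BKO mice alone. The shared *Postn* peak had fold enrichments of 4.87 and 3.26, at ranks by enrichment of 37.2% and 32.5%.

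The enzymes that cross-link collagen and elastin did not move together. *Lox* had 2 peaks over 390 bases in *Wtap* flox/flox and 1 over 150 bases in *Wtap*-BKO mice. Its unmatched peak was the strongest of the matrix peaks found in *Wtap* flox/flox mice alone, with a log10 false discovery rate of -9.42 and a fold enrichment of 5.79. *Loxl1*, which acts on elastic fibres, went from 1 to 3 peaks over 601 and 1022 bases. *Loxl2*, an enzyme active on type IV collagen, had 1 peak of 360 bases in *Wtap*-BKO mice alone, with a fold enrichment of 13.7 and a rank by false discovery rate of 83.5%.

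The fibroblast and mural cell genes carried 5 and 6 peaks, and all 3 had more bases covered in *Wtap*-BKO mice. *Pdgfra*, a receptor of fibroblasts and adipocyte progenitors, had 1 peak of 510 and 629 bases with fold enrichments of 18.3 and 25.0. *Pdgfrb*, the receptor of mural cells, had 2 peaks in each list over 1439 and 1648 bases. The longer *Pdgfrb* peak had fold enrichments of 15.1 and 13.4, at ranks by enrichment of 85.1% and 86.2%. It was listed with a false discovery rate of 0 in *Wtap*-BKO mice. *Pi16*, a marker of adventitial fibroblasts, went from 2 to 3 peaks over 691 and 1112 bases.

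The ADAMTS proteases and ADAMTS-like proteins, which cleave procollagen and proteoglycans or bind microfibrils, had nearly equal numbers of peaks in the 2 lists. Peaks were listed on 12 of 24 genes, with 18 in the controls and 20 in *Wtap*-BKO mice, over 5707 and 7862 bases. More peaks were listed in *Wtap*-BKO mice for 5 of the genes and fewer for 4. *Adamts1*, an aggrecan- and versican-cleaving protease, had 4 peaks over 1021 bases in *Wtap* flox/flox mice, 3 of which were joined into 1 peak of 1408 bases in *Wtap*-BKO mice, so that fewer peaks stood for more bases. The remaining *Adamts1* peak, of 151 bases near the start of the gene, had no counterpart. *Adamts5*, the main aggrecanase, showed the same joining, with 3 and 2 peaks over 1772 and 1831 bases. *Adamts9*, a versican-cleaving protease, had 1 and 3 peaks over 301 and 782 bases. *Adamts7*, *Adamts12* and *Adamts15* also had more bases covered in *Wtap*-BKO mice, with 330 and 838, 241 and 450, and 361 and 570 bases. *Adamts2*, which removes the amino-terminal propeptide of fibrillar procollagen, *Adamts4* and *Adamtsl1* had peaks in *Wtap*-BKO mice alone, with 2, 1 and 2 weak peaks, while *Adamts10* had 1 peak of 181 bases in *Wtap* flox/flox mice alone. *Adamtsl3* and *Adamtsl5* ran against the rest, and each of their 5 shared peaks had a weaker rank by false discovery rate in *Wtap*-BKO mice. No peak was listed on *Adamts3*, *Adamts6*, *Adamts8*, *Adamts13*, *Adamts14*, *Adamts16*, *Adamts17*, *Adamts18*, *Adamts19*, *Adamts20*, *Adamtsl2* and *Adamtsl4*.

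**Figure D4:**
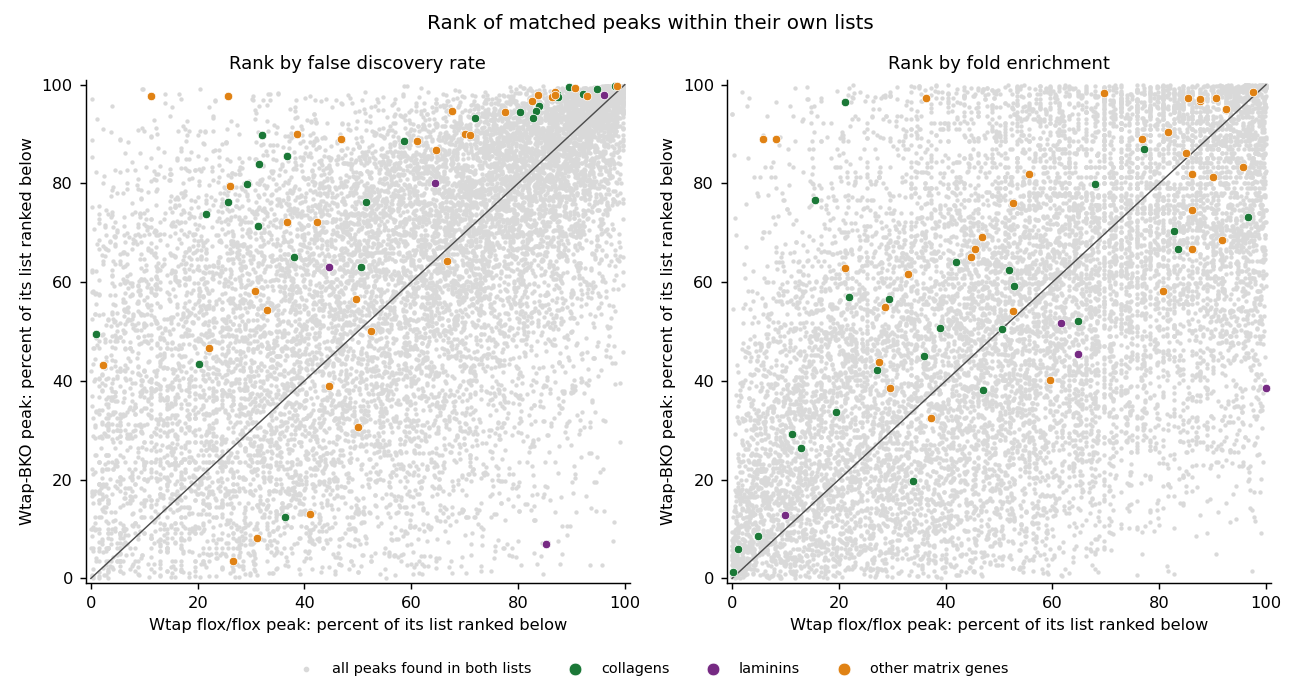
Rank of each *Wtap* flox/flox peak (x axis, percent of its list ranked below) against the strongest *Wtap*-BKO peak on it (y axis, percent of its list ranked below), by false discovery rate on the left and by fold enrichment on the right, with all 12483 pairs in grey and matrix genes in colour. By false discovery rate 53 of the 62 matrix pairs lie above the diagonal, and by fold enrichment 43 do.

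Peaks found in both lists ranked higher among *Wtap*-BKO than among *Wtap* flox/flox peaks for most matrix genes. By false discovery rate this was so for 53 of 62 pairs, against 56.3% of all 12483 pairs, and the median difference in rank was 16.4 percentage points for matrix genes and 2.39 for all pairs. The 62 pairs hold 57 separate *Wtap*-BKO peaks, and all pairs hold 11790. A joined peak, such as that of *Adamts1*, counts once for each *Wtap* flox/flox peak on it, also in the lengths below. Collagens gave 24 of 25 pairs, with *Col23a1* as the exception, laminins 3 of 4 and the others 26 of 33. For collagens the median rank was 51.5% among control peaks and 88.5% among *Wtap*-BKO peaks. The difference was smaller by fold enrichment, with 43 of 62 pairs ranked higher in *Wtap*-BKO mice against 51.1% of all pairs, and a median difference of 8.99 points for matrix genes and 0.565 for all pairs. Laminins changed side, with 1 of 4 pairs ranked higher by fold enrichment. The *Wtap*-BKO peak was the longer of the pair in 48 of 62 cases, against 41.4% of all pairs. The 9 pairs with a lower rank by false discovery rate in *Wtap*-BKO mice belonged to *Col23a1*, *Lamb3*, *Fbn1*, *Lox*, *Adamtsl3* and *Adamtsl5*.

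A small number of matrix peaks had a strong false discovery rate at a low enrichment. Peaks that ranked above 50% of their list by false discovery rate and below 10% by fold enrichment, limits chosen after the values were seen, numbered 0 of 73 in *Wtap* flox/flox mice (2.79% of all peaks) and 10 of 115 in *Wtap*-BKO mice (3.52% of all peaks). They belonged to *Col3a1*, *Col4a1*, *Col4a2*, *Lamb1*, *Lamb2* and *Sparc*, with 5 on collagens, 2 on laminins and 3 on *Sparc*.

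**Figure D5:**
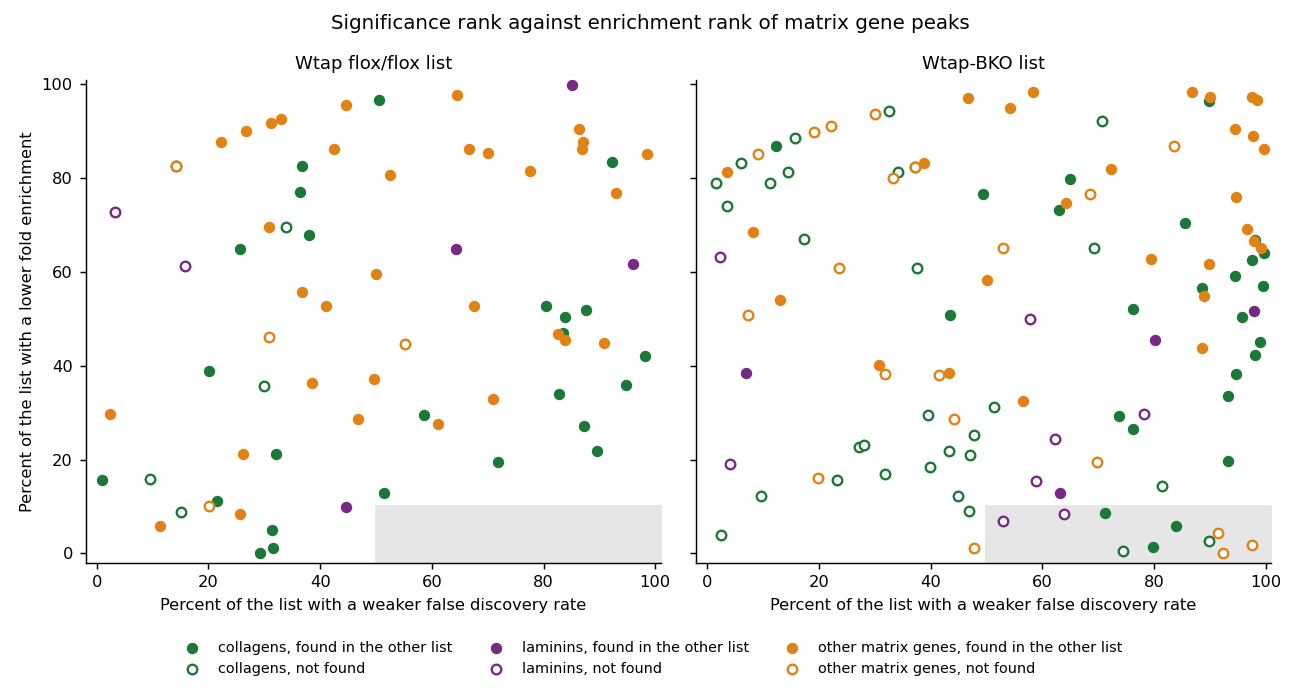
Rank of each matrix gene peak by false discovery rate (x axis, percent of its list with a weaker value) against its rank by fold enrichment (y axis, percent of its list with a lower value), with filled symbols for peaks found in the other list and open symbols for the rest. The shaded corner holds 0 of 73 control peaks and 10 of 115 *Wtap*-BKO peaks.

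The shares of matrix peaks near the ends of their genes were close to those of all peaks. Of the peaks that could be placed, 14 of 70 in the controls and 21 of 111 in *Wtap*-BKO mice had their centre within 1000 bp of the 3′ end, which was 20% (12.3% to 30.8%) and 18.9% (12.7% to 27.2%), against 21.5% and 19.2% of all peaks. The shares within 1000 bp of the 5′ end were 12.9% and 8.11%, against 10.1% and 11.4% of all peaks. The *Wtap*-BKO collagen peaks found in both lists were near the 3′ end in 8 of 24 cases, and those in *Wtap*-BKO mice alone in 3 of 29. Over all *Wtap*-BKO peaks these shares were 19.4% and 18.7%. The annotation used gives gene ends and no exon classes, so peaks were not assigned to coding or untranslated sequence.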

How the data were processed

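MeRIP-seq libraries of iBAT were made from pooled RNA, 1 immunoprecipitate and 1 input per genotype. The submitters' processing notes name fastp 0.19.11, BWA 0.7.12, HOMER 4.9.1 and GRCm38.p6. The study's methods name MACS2, but the columns resemble those of exomePeak, so the peak caller could not be settled. The deposited lists give per peak a p-value by the authors, a log10 false discovery rate (a score, deposited as a log10 value) and a ratio, the authors' fold enrichment over input. Every listed false discovery rate is below 0.05.

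Blocks of each peak were compared by shared exonic bases on the same strand in Python 3.11.15 with pandas 2.3.3 and numpy 2.4.6, and Wilson intervals came from scipy 1.17.1. Gene ends came from RefSeq GRCm38.p6, for peaks inside their gene span on genes of at least 3000 bp. Matching and ranking were tested on simulated data. A pair joined a *Wtap* flox/flox peak with the *Wtap*-BKO peak on it that had the strongest false discovery rate. The genes described singly were a set list of major matrix genes, every gene in 1 list alone, and per group the 3 largest differences in peak number and the 3 strongest unmatched peaks of each list. Genes, groups and marker lists were chosen with earlier results of these data known. No sequence was printed because no genome was used here.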

Additional observations from a re-analysis of the deposited data

How the results depend on the processing

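Each genotype is 1 pooled sample, so none could be dropped in turn, and biological error is not measured. No paired analysis was possible because each genotype has 1 sample and no test was made. Of 98 alternative values, 71 were classed as the same as those reported, 26 as moved and 1 as changed in side. Values in the first class could still differ in size. With a false discovery rate under 1e-05, genes in both lists, in *Wtap* flox/flox mice alone and in *Wtap*-BKO mice alone numbered 27, 3 and 13, against 40, 4 and 10. The shares of all genes at that limit are not given here, so these counts have no baseline. Under the same limit, the numbers of control and *Wtap*-BKO peaks were 15 and 35 for collagens, 24 and 32 for the other genes, and 43 and 76 for all matrix genes. When any peak on the same gene counted as found, the share of *Wtap* flox/flox peaks found was 93.3% for collagens, 97.3% for the others and 94.5% for all matrix genes, and the share of *Wtap*-BKO peaks found was 87.3%, 85.4% and 87.0%, with 91.7% for laminins. With the limit of 1e-05 in the list searched from, the *Wtap* flox/flox shares were 100% for collagens and laminins, 95.8% for the others and 97.7% for all, and the *Wtap*-BKO shares were 68.6% for collagens, 71.9% for the others and 65.8% for all. With that limit in both lists, the collagen share of *Wtap* flox/flox peaks was 100%. No shares over all peaks are given for these other rules of matching, so they cannot be set against the whole lists. By fold enrichment instead of false discovery rate, the share of pairs ranked higher in *Wtap*-BKO mice was 72% for collagens, 69.4% for all and 25% for laminins, the last on the other side of 50%. The share near the 3′ end was 8.57% within 500 bp and 38.6% within 2000 bp in *Wtap* flox/flox mice, against 11.1% and 37.6% of all peaks. In *Wtap*-BKO mice it was 6.31% and 33.3%, against 9.53% and 34.3% of all peaks. Depth is unknown, and it limits which weak peaks could be listed.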

Other observations

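Matrix genes outside the name rule were counted in the same way. Of 78 further genes for matrix proteins, matrix enzymes, collagen-processing enzymes and matrix receptors, 54 had a peak, 40 of them in both lists. Peaks went from 77 to 110 and covered bases from 26853 to 31397, a ratio of 1.17. Without *Dag1*, *Ltbp2* and *Prelp*, left out after their values were seen, the ratio was 1.42. These were the genes with the largest losses of bases, and no gene with a large gain was left out, so that ratio is one-sided. More bases were covered in *Wtap*-BKO mice for 40 of the 54 genes (44.5% of all genes) and fewer for 12. Peaks in *Wtap*-BKO mice alone were listed on 12 of the 54 genes (14.9% of all genes). They included *Eln*, which encodes elastin, the proteoglycan genes *Bgn*, *Vcan*, *Fmod* and *Ogn*, the collagen-degrading proteases *Mmp2* and *Mmp9*, the procollagen proteinase enhancers *Pcolce* and *Pcolce2*, and *P4ha1* and *Crtap*, which take part in prolyl hydroxylation of collagen. Peaks in *Wtap* flox/flox mice alone were listed on *Timp4* and *P3h1*.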
